A study of Mus musculus with 4 samples.

Results

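The 54 genes described here encode the working parts of the lysosome: its proteases, glycosidases and sulfatases, its lipid hydrolases with their activator and transfer proteins, its membrane proteins, 5 components of its proton pump, and Tfeb, a transcription factor that controls lysosomal genes. They were chosen as a list of lysosome genes because tamoxifen is a cationic amphiphilic drug, a class that can cause storage of phospholipids, and were matched by mouse gene symbol to the Ensembl identifiers of the tables. All 54 were found among the 22298 genes listed, and all 54 were among the 11633 genes tested, which reached 1 FPKM or more in at least 2 of the 4 libraries. FPKM scales the fragments of a gene to the length of its transcript and to the depth of the library, so levels can be set side by side between genes. Of the 54, 53 were at 1 FPKM or more in every library, and the exception was Ctsk, at 0.71 FPKM in tamoxifen 2.

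The lysosome is an acidic compartment in which proteins, glycans and lipids from endocytosis and autophagy are broken down. A proton pump, the V-ATPase, keeps it acidic, most of its enzymes are delivered from the Golgi by mannose 6-phosphate receptors, and loss of single enzymes causes storage diseases. Cationic amphiphilic drugs become trapped in its acidic interior, where they can hinder phospholipases. In liver, hepatocytes hold many lysosomes, and Kupffer cells and other macrophages, which engulf particles and dead cells, express several lysosomal genes at higher levels.

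Male wild-type (WT) C57BL/6 mice, bought at 8 weeks of age, were fed a methionine- and choline-deficient (MCD) diet for 6 weeks, which produces a fatty and inflamed liver. They were then injected intraperitoneally on 5 days with tamoxifen at 100 mg/kg, a selective estrogen receptor modulator, or with vehicle. All libraries therefore share the diet, the strain and the sex, and tamoxifen was the difference between the groups. Primary hepatocytes, the parenchymal cells of the liver, were isolated at Day 5, and 2 libraries per group were sequenced after enrichment of polyadenylated RNA. The libraries are called tamoxifen 1 and 2 and vehicle 1 and 2. The labels do not say whether they came from separate mice, so each p-value rests on the spread among these libraries alone, which may be technical.

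No read counts were given. Depth, estimated from the spacing of low values, was 85.9% and 80.4% of that of the deepest library in tamoxifen, against 100% and 94.9% in vehicle. The 100 most abundant genes took 62.6% and 65.0% of all FPKM in tamoxifen, against 53.8% and 46.1% in vehicle, and over all genes the log2 fold changes had a median of -0.60 (0.01 after rescaling by median ratios and 0.09 after quantile normalization). The labelled cell type was checked with 15 hepatocyte markers, all present, which summed to between 73689 and 77192 FPKM in tamoxifen and between 40590 and 54553 FPKM in vehicle. Markers of other cell types were also present. In addition, 19 genes of pancreatic acinar cells summed to 8.76 and 53.9 FPKM in tamoxifen, against 8.53 and 1487 FPKM in vehicle, so vehicle 2 stood apart.

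The promoters of several of these genes carry the sequence read by TFEB and its relatives, an E-box whose core is CACGTG and whose longer form is TCACGTGA. Windows from 250 bases before to 50 bases after the start site were available from RefSeq (build GRCm38.p6) for 48 of the 54 genes. TCACGTGA, which reads the same on both strands, occurred in 7 of the 48 (14.6%), against 1.12% of the 27025 genes with such a window. The 7 were Atp6v0d1, Atp6v1a, Cln3, Ctsa, Ctsd, Gla and Mcoln1. Its core CACGTG, which lies within it, occurred in 16 of the 48 (33.3%), against 8.09% of all genes. A longer palindrome, TCACGTGA with G before it and C after it, occurred in 1 of the 48, Cln3, against 0.370% of all genes. GAGGAAGT, a form of the site read by PU.1, an ETS factor of macrophages, was searched on both strands and occurred in 4 of the 48 (8.33%), against 3.69% of all genes. These 4 were Ctsc, Ctss, Gla and Gusb. Of the 7 genes with TCACGTGA, 6 were picked for display by the size of their change, after the holder of the longer palindrome. This rule left out Mcoln1, whose log2 fold change was -0.19, so the choice does not tie the sequence to the falls. The windows below place the TFEB-type sequence in 6 genes of 4 lysosomal roles, namely membrane protein, glycosidase, cathepsin and proton pump. They run 5′ to 3′ on the strand of the gene, and capitals mark TCACGTGA or, in Cln3, the longer palindrome.

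Cln3 (chr7:126583310-126583399, minus strand): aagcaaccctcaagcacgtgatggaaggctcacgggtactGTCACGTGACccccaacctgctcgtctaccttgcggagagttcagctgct

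Gla (chrX:134601186-134601255, minus strand): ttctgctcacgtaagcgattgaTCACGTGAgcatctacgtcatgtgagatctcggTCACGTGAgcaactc

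Ctsd (chr7:142387879-142387966, minus strand): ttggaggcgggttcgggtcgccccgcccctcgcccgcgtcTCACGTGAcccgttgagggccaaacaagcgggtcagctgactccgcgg

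Atp6v1a (chr16:44139344-44139431, minus strand): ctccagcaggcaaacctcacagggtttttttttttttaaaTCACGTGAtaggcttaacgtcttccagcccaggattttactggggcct

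Ctsa (chr2:164833720-164833807, plus strand): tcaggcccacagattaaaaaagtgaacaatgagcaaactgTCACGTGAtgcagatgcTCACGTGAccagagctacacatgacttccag

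Atp6v0d1 (chr8:105566021-105566108, minus strand): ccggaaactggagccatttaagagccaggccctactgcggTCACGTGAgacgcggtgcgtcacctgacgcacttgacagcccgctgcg

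Counted from the start site, with minus for bases before it, the sequence begins at position -123 in Cln3, -228 in Gla, -99 in Ctsd, -132 in Atp6v1a, -13 in Ctsa and -4 in Atp6v0d1. Gla and Ctsa each held a second copy within the window shown. A match is a description of letters and does not show that a factor binds there.

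Most of the lysosomal genes were lower after tamoxifen. With limma and an adjusted p under 0.05, 36 of the 54 fell, 0 rose and 18 did not pass the test. No member was higher at an unadjusted p under 0.05 either (0 genes). Over all genes tested, 46.7% were lower and 4.31% were higher by the same rule, so the share of the lysosomal genes that fell, 66.7%, stands on a high background. Their median log2 fold change was -1.26, beside -0.60 for all genes. In 45 of the 54 both tamoxifen libraries were below both vehicle libraries, against 71.9% of all genes tested. In 8 genes the groups overlapped, and in 1, Ctsl, both tamoxifen libraries were above both vehicle libraries. Of the 36 genes that fell, 29 fell by at least 2-fold and 12 by at least 4-fold.

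The counts depended on how the libraries were scaled. After rescaling by median ratios, which brings the median gene to no change, 23 of the 54 were lower (20.3% of all genes) and 3 were higher (14.6% of all genes). After quantile normalization, which gives every library the same distribution, 26 were lower (13.7% of all genes) and 1 was higher (13.4% of all genes). The median of the 54 was then -0.59 and -0.66. After median ratios the lower genes were 5 of 12 cathepsins and legumain, 7 of 16 glycosidases and sulfatases, 4 of 9 lipid genes, 4 of 9 membrane proteins, 2 of 5 pump genes and Tfeb. Ctsl, Fuca1 and Smpd1 were the genes that were higher after median ratios, and Fuca1 was higher after quantile normalization. The same 20 genes were lower on all 3 scales and in each of the 11 alternatives run: Ctss, Ctsk, Lgmn, Ctsb, Ctsd, Gla, Hexa, Gusb, Man2b1, Galc, Psap, Npc2, Pla2g15, Lipa, Laptm5, Cd68, Cd63, Cln3, Atp6v0d2 and Atp6v1a.

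**Figure D1:**
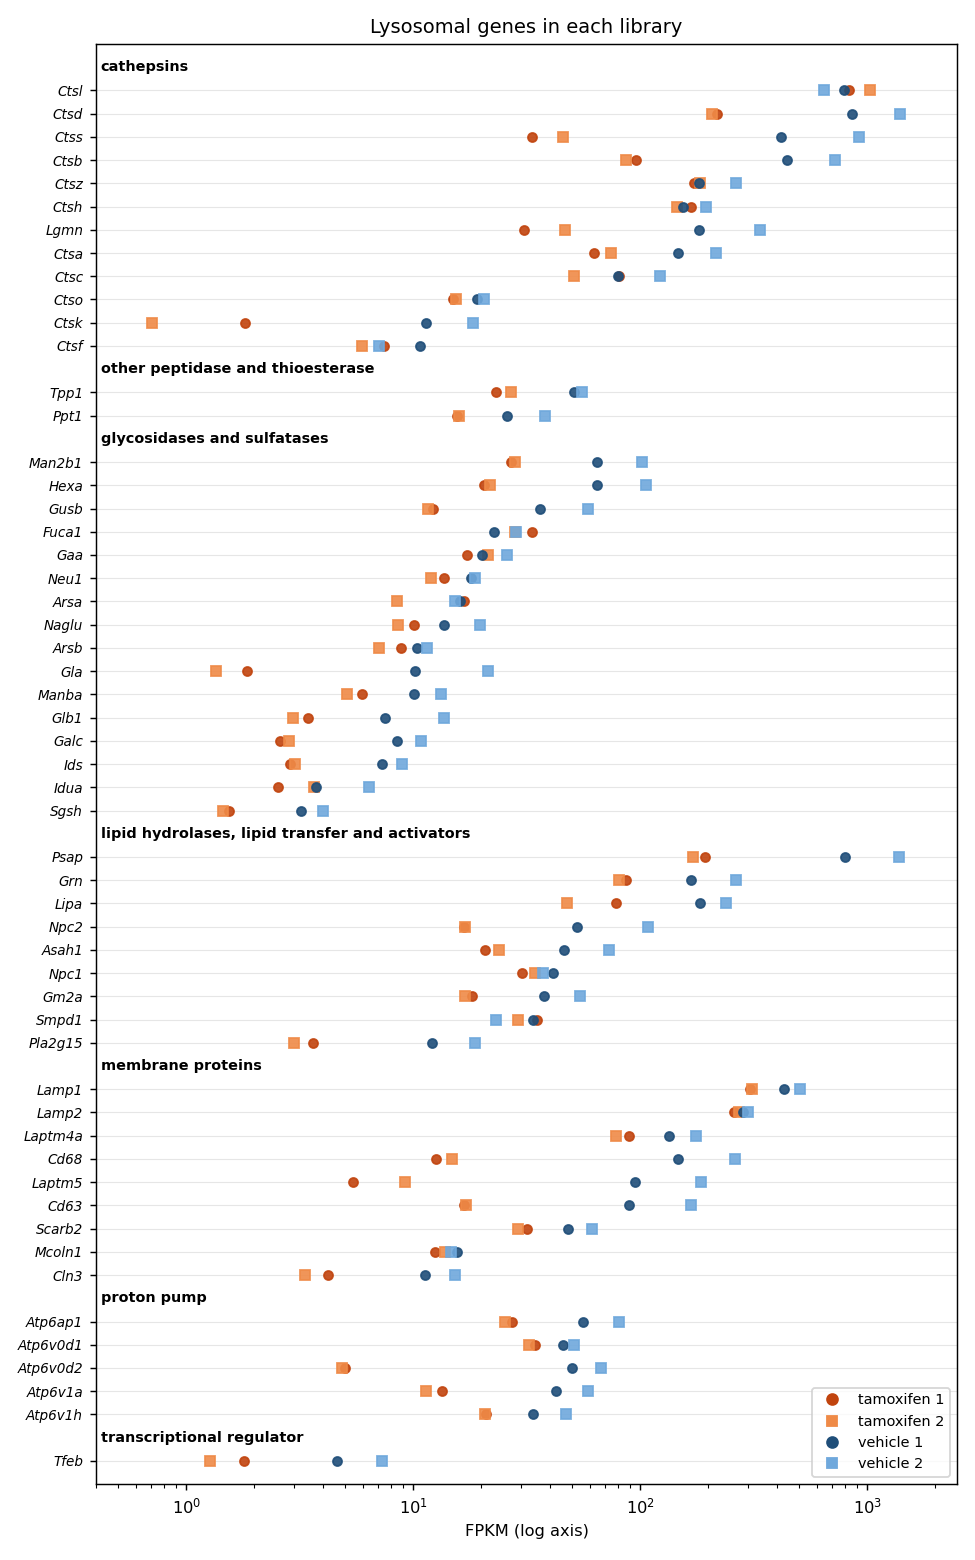
FPKM of each of the 54 lysosomal genes in each library (log axis), grouped by role, with circles for library 1 and squares for library 2 of each group (orange and red, tamoxifen; blue, vehicle). Each symbol is 1 library, with no averaging. Ctss lies at 33.5 and 45.6 FPKM in tamoxifen and at 419 and 920 FPKM in vehicle, whereas the 4 values of Lamp2 lie between 258 and 298 FPKM.

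Summed over the 54 genes, lysosomal transcripts made up 3255 and 3371 FPKM in tamoxifen, against 6547 and 9633 FPKM in vehicle. As a share of all FPKM this was 0.566% and 0.592% in tamoxifen and 1.22% and 1.84% in vehicle. The tamoxifen libraries were close to each other, and the vehicle libraries were both higher and further apart. Ctsd, Psap, Ctss and Ctsb together gave 61.7% of the difference between the group means of this sum. The vehicle libraries also differed in a common direction: vehicle 2 exceeded vehicle 1 in 48 of the 54 genes, and in 70.9% of all genes. The 6 others were Ctsf, Ctsl, Arsa, Npc1, Smpd1 and Mcoln1. Without vehicle 2, 30 of the 54 were lower. Without vehicle 1 it was -1.45, beside -0.69 for all genes. Without tamoxifen 1 it was -1.20, beside -0.65, and without tamoxifen 2 it was -1.25, beside -0.57. The part of the acinar RNA of vehicle 2 in these differences was not tested.

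Cathepsins and legumain, the proteases, were called about as often as genes in general on the deposited scale only. There 6 of the 12 fell (50%, beside 46.7% of all genes) and 6 did not pass the test. After median ratios 5 were lower (41.7%, beside 20.3% of all genes), and after quantile normalization 6 (50%, beside 13.7%). Cathepsin S, a cysteine protease that antigen-presenting cells use to process the invariant chain, had 33.5 and 45.6 FPKM in tamoxifen, against 419 and 920 FPKM in vehicle. Both tamoxifen libraries were low, and the groups were far apart. On the log2 scale, on which all falls are given here, Ctss fell by 3.96 (standard error 0.37, adjusted p = 0.000612). Cathepsin K, a collagen-cleaving protease best known from osteoclasts, had 1.81 and 0.71 FPKM in tamoxifen and 11.3 and 18.3 FPKM in vehicle. It was the least abundant of the 12 in both tamoxifen libraries. By mean FPKM over all libraries Ctsf was lower, at 7.80 against 8.04 for Ctsk. Ctsk fell by 2.82 (standard error 0.33, adjusted p = 0.00102). The 2 genes are neighbours on chromosome 3 (chr3:95499256-95556403, GRCm38), with 17423 bases and 0 listed genes between them.

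Cathepsin D, the main aspartic protease of lysosomes, had 218 and 207 FPKM in tamoxifen, against 855 and 1402 FPKM in vehicle. The tamoxifen libraries nearly coincided and lay well below both vehicle libraries. Ctsd fell by 2.36 (standard error 0.29, adjusted p = 0.00124). Cathepsin B, a cysteine protease with both endopeptidase and exopeptidase activity, had 95.5 and 86.4 FPKM in tamoxifen and 444 and 725 FPKM in vehicle, and fell by 2.63 (adjusted p = 0.00084). Legumain, which cleaves after asparagine and matures several cathepsins, had 30.7 and 46.7 FPKM in tamoxifen and 182 and 338 FPKM in vehicle, and fell by 2.68 (adjusted p = 0.00126). The groups did not overlap for either gene. Cathepsin A, a serine carboxypeptidase that also stabilizes the sialidase and the beta-galactosidase, had 62.8 and 74.4 FPKM in tamoxifen and 146 and 216 FPKM in vehicle. It fell by 1.37 (adjusted p = 0.00453), and after median ratios its log2 fold change was -0.64 (adjusted p = 0.0763, with a range of 9.36e-05 to 0.0763 over the 11 alternatives).

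Cathepsin L went against the others. This broad-acting cysteine protease, encoded on chromosome 13 (chr13:64359337-64370890, minus strand), had 832 and 1029 FPKM in tamoxifen, against 792 and 645 FPKM in vehicle. It was the most abundant of the 54 genes by mean FPKM, and both tamoxifen libraries were above both vehicle libraries. The log2 fold change of 0.37 did not pass the test (standard error 0.27, 95% interval -0.25 to 0.99, adjusted p = 0.269). It depended on the scale: 1.11 after median ratios (adjusted p = 0.0361) and -0.11 after quantile normalization (adjusted p = 0.711). Over the 11 alternatives the adjusted p ranged over 0.0361 to 0.717. The aminopeptidase Ctsh, the carboxypeptidase Ctsz and the dipeptidyl peptidase Ctsc also did not pass. Ctsh had 167 and 146 FPKM in tamoxifen and 154 and 196 FPKM in vehicle, and Ctsz had 172 and 184 FPKM in tamoxifen and 182 and 264 FPKM in vehicle. Ctsc had 80.7 and 50.9 FPKM in tamoxifen and 80.0 and 122 FPKM in vehicle. In all 3 the groups overlapped. The less abundant cysteine proteases Ctso and Ctsf had log2 fold changes of -0.36 and -0.35.

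The make-up of the protease transcripts therefore differed between the groups. Cathepsin L made up 48.5% and 54.4% of the summed FPKM of the 12 proteases in tamoxifen, against 24.0% and 13.2% in vehicle. Cathepsin D made up 12.7% and 11.0% in tamoxifen and 25.9% and 28.8% in vehicle. Cathepsin B made up 5.56% and 4.57% in tamoxifen and 13.5% and 14.9% in vehicle, and cathepsin S 1.95% and 2.41% in tamoxifen and 12.7% and 18.9% in vehicle. None of these 4 shares overlapped between the groups. Shares do not change when a library is scaled by a single factor, as by median ratios, but do change with quantile normalization. A share also moves with the other members of the sum, and no test was made of them.

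**Figure D2:**
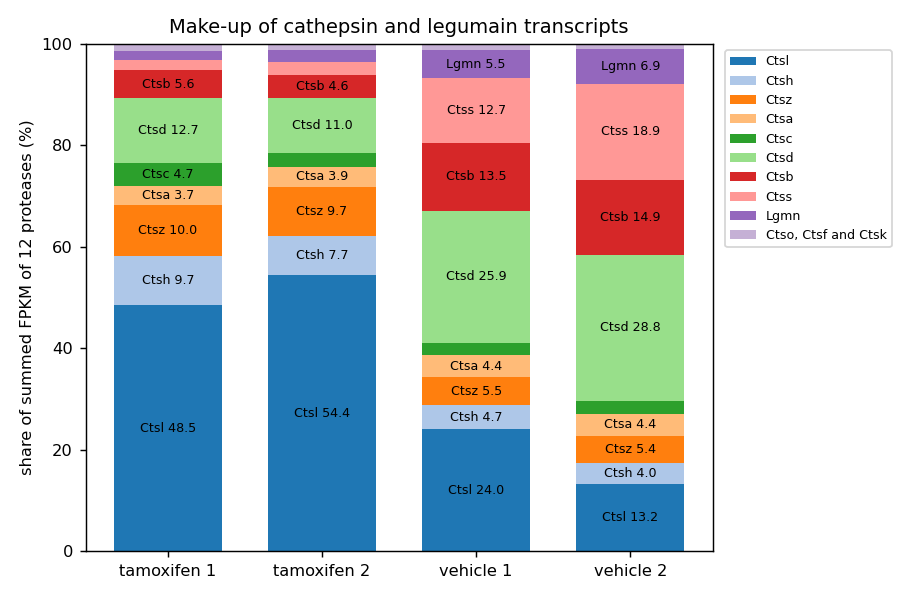
Share of the summed FPKM of 11 cathepsins and legumain taken by each gene, in percent, with 1 stacked bar per library, the 2 tamoxifen libraries left of the 2 vehicle libraries. Cathepsin L takes 48.5% and 54.4% in tamoxifen and 24.0% and 13.2% in vehicle, and cathepsins D, B and S take smaller shares in tamoxifen than in vehicle.

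Both remaining enzymes of protein breakdown fell. Tripeptidyl peptidase 1, which removes tripeptides from protein ends, had 23.3 and 27.0 FPKM in tamoxifen, against 51.0 and 55.6 FPKM in vehicle. Tpp1 fell by 1.06 (standard error 0.20, adjusted p = 0.00505). Palmitoyl-protein thioesterase 1, which strips palmitate from proteins, had 15.6 and 15.9 FPKM in tamoxifen and 26.0 and 38.1 FPKM in vehicle. The groups of both genes were apart. Ppt1 fell by 0.96 (adjusted p = 0.0137), but missed the threshold without vehicle 2 (adjusted p = 0.0617), without tamoxifen 1 (0.0653) and without tamoxifen 2 (0.065). Neither gene passed after median ratios or quantile normalization, where the log2 fold changes were -0.34 and -0.62 for Tpp1 and -0.25 and -0.43 for Ppt1. The adjusted p of Ppt1 ranged over 0.00196 to 0.36 in the 11 alternatives.

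Glycosidases and sulfatases take glycans, glycolipids and glycosaminoglycans apart. Of these 16, 10 fell (62.5%, beside 46.7% of all genes) and 6 did not pass. Alpha-galactosidase A, which releases galactose from globotriaosylceramide, had 1.85 and 1.35 FPKM in tamoxifen, against 10.2 and 21.4 FPKM in vehicle. It was low in both tamoxifen libraries, and vehicle 2 was well above vehicle 1. Gla fell by 2.61 (standard error 0.34, adjusted p = 0.00143). The alpha subunit of beta-hexosaminidase, which degrades the ganglioside GM2, had 20.5 and 21.8 FPKM in tamoxifen, against 64.8 and 106 FPKM in vehicle. Hexa fell by 1.93 (standard error 0.26, adjusted p = 0.00165). Lysosomal alpha-mannosidase, encoded by Man2b1 and the most abundant of the 16 by mean, had 27.0 and 28.1 FPKM in tamoxifen and 64.7 and 102 FPKM in vehicle, and fell by 1.53 (adjusted p = 0.00316). Beta-glucuronidase (Gusb) had 12.2 and 11.6 FPKM in tamoxifen and 36.2 and 59.0 FPKM in vehicle and fell by 1.87 (adjusted p = 0.00175). Galactosylceramidase (Galc), which degrades the main lipid of myelin, had 2.59 and 2.83 FPKM in tamoxifen and 8.50 and 10.8 FPKM in vehicle and fell by 1.52 (adjusted p = 0.00226). In all 5 the groups were apart.

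The other 5 that fell were less stable. Beta-galactosidase (Glb1) had 3.43 and 2.97 FPKM in tamoxifen, against 7.53 and 13.7 FPKM in vehicle. It fell by 1.42 (adjusted p = 0.00718) and lost its call after quantile normalization (-0.65, adjusted p = 0.0965). Iduronate 2-sulfatase (Ids), of dermatan and heparan sulfate breakdown, had 2.87 and 3.03 FPKM in tamoxifen and 7.31 and 8.90 FPKM in vehicle. It fell by 1.20 (adjusted p = 0.00478) and likewise missed the threshold after quantile normalization (-0.39, adjusted p = 0.138). Beta-mannosidase (Manba) had 5.96 and 5.12 FPKM in tamoxifen and 10.1 and 13.3 FPKM in vehicle and fell by 0.95 (adjusted p = 0.013). Naglu, which removes N-acetylglucosamine from heparan sulfate, had 10.1 and 8.60 FPKM in tamoxifen and 13.7 and 19.7 FPKM in vehicle and fell by 0.75 (adjusted p = 0.0337). Sgsh, the heparan N-sulfatase, had 1.55 and 1.45 FPKM in tamoxifen and 3.2 and 4.0 FPKM in vehicle and fell by 0.87 (adjusted p = 0.0177). None of these last 3 passed after median ratios or quantile normalization. Without tamoxifen 1 the adjusted p was 0.0557 for Manba, 0.0929 for Naglu and 0.0997 for Sgsh. Without tamoxifen 2 it was 0.105, 0.192 and 0.133. Without vehicle 2 it was 0.0616 for Manba and 0.142 for Naglu. Over all alternatives the adjusted p ranged over 0.000153 to 0.0965 for Glb1, 0.000447 to 0.138 for Ids, 0.00301 to 0.4 for Manba, 0.0133 to 0.789 for Naglu and 0.0109 to 0.868 for Sgsh.

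Alpha-L-fucosidase (Fuca1), which removes fucose from glycoproteins, had 33.6 and 28.1 FPKM in tamoxifen, against 22.7 and 28.5 FPKM in vehicle. The groups overlapped, and the log2 fold change of 0.27 did not pass the test (standard error 0.22, adjusted p = 0.328). It passed as higher after median ratios (0.98, adjusted p = 0.00931) and after quantile normalization (0.76, adjusted p = 0.0312). The glycogen-degrading Gaa, the sialidase Neu1, the sulfatases Arsa and Arsb, and Idua, which acts on the same glycosaminoglycans as Ids, had log2 fold changes between -0.54 and -0.24. None of the 5 passed. Arsa had 16.7 and 8.53 FPKM in tamoxifen and 16.2 and 15.2 FPKM in vehicle, so its tamoxifen libraries spanned both vehicle ones. Idua passed as lower without vehicle 1 (-0.86, adjusted p = 0.0469). The adjusted p ranged over 0.00931 to 0.742 for Fuca1 and 0.0469 to 0.909 for Idua in all alternatives.

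The lipid group holds the enzymes nearest to phospholipid storage, and 7 of its 9 genes fell (77.8%, beside 46.7% of all genes). Prosaposin, the precursor of the saposins that present sphingolipids to their hydrolases, had 192 and 171 FPKM in tamoxifen, against 796 and 1385 FPKM in vehicle. It was among the 3 most abundant of the 54 genes, and the groups were apart. Psap fell by 2.53 (standard error 0.31, adjusted p = 0.00116). Pla2g15, the lysosomal phospholipase A2, an enzyme known to be inhibited by cationic amphiphilic drugs, had 3.63 and 3.0 FPKM in tamoxifen, against 12.1 and 18.7 FPKM in vehicle. Its level was low in all 4 libraries, and both tamoxifen values were below both vehicle values. Pla2g15 fell by 1.90 (standard error 0.26, adjusted p = 0.00169). Lysosomal acid lipase (Lipa), which hydrolyses cholesteryl esters and triglycerides, had 78.0 and 47.6 FPKM in tamoxifen and 183 and 239 FPKM in vehicle, and fell by 1.76 (adjusted p = 0.00286).

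The genes of cholesterol export parted. NPC2, the soluble protein that binds cholesterol in the lysosome, had 16.7 and 16.9 FPKM in tamoxifen, against 52.7 and 109 FPKM in vehicle. Npc2 fell by 2.11 (standard error 0.33, adjusted p = 0.00241). Npc1, its membrane partner, had 30.3 and 34.5 FPKM in tamoxifen and 41.2 and 37.2 FPKM in vehicle. Both tamoxifen values were below both vehicle values, but the log2 fold change of -0.27 did not pass (95% interval -0.74 to 0.20, adjusted p = 0.283), and it was 0.45 after median ratios and 0.19 after quantile normalization. The difference between the 2 changes was not tested.

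The enzymes that cleave and form ceramide had these values, and the difference between their changes was not tested. Acid ceramidase (Asah1) had 20.8 and 24.0 FPKM in tamoxifen, against 46.1 and 72.7 FPKM in vehicle, and fell by 1.34 (standard error 0.26, adjusted p = 0.00543). Acid sphingomyelinase (Smpd1), which makes ceramide and is itself a target of cationic amphiphilic drugs, had 35.1 and 29.0 FPKM in tamoxifen and 33.7 and 23.1 FPKM in vehicle. The groups overlapped. Its log2 fold change of 0.19 did not pass (standard error 0.24, 95% interval -0.38 to 0.75, adjusted p = 0.539), and it passed as higher after median ratios (0.90, adjusted p = 0.0411). The GM2 activator (Gm2a), which hands the ganglioside to beta-hexosaminidase, had 18.1 and 16.9 FPKM in tamoxifen and 37.5 and 54.3 FPKM in vehicle, and fell by 1.32 (adjusted p = 0.00401). Progranulin (Grn), a secreted and lysosomal protein that binds prosaposin, had 86.7 and 80.7 FPKM in tamoxifen and 167 and 265 FPKM in vehicle, and fell by 1.32 (adjusted p = 0.00616). After median ratios Asah1, Gm2a and Grn missed the threshold, with adjusted p values of 0.0779, 0.0506 and 0.0933, each the highest of the 11 alternatives. The lowest, 7.47e-05, 0.000102 and 0.000252, came from the fit with the replicate number as a block, a pairing that is not shown. For Smpd1 the range was 0.0411 to 0.912.

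Of the 9 membrane proteins, 6 fell (66.7%, beside 46.7% of all genes), in a wide range. Laptm5, a transmembrane protein of blood-derived cells, had 5.44 and 9.22 FPKM in tamoxifen, against 95.2 and 185 FPKM in vehicle. On the deposited scale it had the largest fall of the 54 genes (after quantile normalization Ctss had), and tamoxifen averaged 5.24% of vehicle. Laptm5 fell by 4.04 (standard error 0.35, adjusted p = 0.000541). CD68, a heavily glycosylated LAMP family protein used as a macrophage marker, had 12.6 and 14.9 FPKM in tamoxifen, against 147 and 261 FPKM in vehicle, and fell by 3.74 (standard error 0.29, adjusted p = 0.000482). The tetraspanin Cd63 had 16.7 and 17.1 FPKM in tamoxifen and 89.0 and 168 FPKM in vehicle, and fell by 2.79 (adjusted p = 0.000868). Cln3, the protein lost in juvenile Batten disease, had 4.22 and 3.34 FPKM in tamoxifen and 11.3 and 15.3 FPKM in vehicle, and fell by 1.57 (adjusted p = 0.00241). In all 9 membrane genes both tamoxifen values were below both vehicle values, as they were in 71.9% of all genes tested.

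The abundant membrane proteins Lamp1 and Lamp2, and the channel Mcoln1, did not pass. Lamp2, which also serves in fusion with autophagosomes, had 258 and 273 FPKM in tamoxifen, against 284 and 298 FPKM in vehicle. All 4 values lay close together, and the log2 fold change was -0.13 (standard error 0.21, 95% interval -0.63 to 0.37, adjusted p = 0.62). Lamp1 had 304 and 310 FPKM in tamoxifen and 430 and 505 FPKM in vehicle, with a log2 fold change of -0.60 (adjusted p = 0.0592). It passed as lower after quantile normalization (-0.80, adjusted p = 0.0304) and without vehicle 1 (-0.72, adjusted p = 0.0394), and its log2 fold change was 0.13 after median ratios. The calcium channel Mcoln1 had 12.5 and 13.8 FPKM in tamoxifen and 15.5 and 14.7 FPKM in vehicle, with a log2 fold change of -0.19. Laptm4a, a broadly expressed relative of Laptm5, had 89.4 and 78.5 FPKM in tamoxifen and 134 and 177 FPKM in vehicle, and fell by 0.87 (adjusted p = 0.0165). Scarb2, the receptor that carries glucocerebrosidase to lysosomes, had 31.6 and 29.0 FPKM in tamoxifen and 48.2 and 61.3 FPKM in vehicle, and fell by 0.82 (adjusted p = 0.0159). Both lost their calls after median ratios and quantile normalization. Their adjusted p values were 0.0709 and 0.0704 without vehicle 2, 0.057 and 0.0625 without tamoxifen 1, and 0.116 and 0.105 without tamoxifen 2. The ranges over the alternatives were 0.00642 to 0.618 for Laptm4a, 0.00594 to 0.678 for Scarb2 and 0.0304 to 0.676 for Lamp1.

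The proton pump showed its widest contrast between 2 forms of the same subunit. Atp6v0d2, the d2 form found mainly in osteoclasts and macrophages, had 5.01 and 4.88 FPKM in tamoxifen, against 49.9 and 67.3 FPKM in vehicle. Its values were tight within each group and far apart between them. Atp6v0d2 fell by 3.31 (standard error 0.22, adjusted p = 0.000371). Atp6v0d1, the widely expressed d1 form, had 34.4 and 32.4 FPKM in tamoxifen, against 45.9 and 51.2 FPKM in vehicle. Its log2 fold change of -0.53 narrowly missed the threshold (standard error 0.20, adjusted p = 0.055). It passed as lower with no filter (adjusted p = 0.04998) and was 0.19 after median ratios, and the adjusted p ranged over 0.04998 to 0.735 in the alternatives. In tamoxifen the d1 form was therefore the more abundant one, while in vehicle 1 and 2 the d2 form was above it. The 3 other pump genes fell. Atp6v1a, the catalytic subunit, had 13.4 and 11.4 FPKM in tamoxifen and 42.4 and 59.0 FPKM in vehicle, and fell by 1.94 (adjusted p = 0.00112). Atp6ap1, an accessory protein of the pump, had 27.3 and 25.4 FPKM in tamoxifen and 55.8 and 80.8 FPKM in vehicle, and fell by 1.32 (adjusted p = 0.00407). The groups were apart in both. Atp6v1h, a subunit of the cytosolic part, had 20.9 and 20.7 FPKM in tamoxifen and 33.6 and 46.9 FPKM in vehicle, and fell by 0.90 (adjusted p = 0.0142). Atp6ap1 missed the threshold after median ratios (adjusted p = 0.056). Atp6v1h missed it after median ratios and quantile normalization, and also without vehicle 2 (adjusted p = 0.0643), without tamoxifen 1 (0.0654) and without tamoxifen 2 (0.0749). The ranges were 0.000112 to 0.056 for Atp6ap1 and 0.00299 to 0.461 for Atp6v1h.

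Tfeb, which switches on many lysosomal and autophagy genes when it enters the nucleus, had 1.79 and 1.27 FPKM in tamoxifen, against 4.63 and 7.26 FPKM in vehicle. Its transcript was low in every library, and the groups were apart. Tfeb fell by 1.44 (standard error 0.27, adjusted p = 0.00508) and missed the threshold after quantile normalization (-0.55, adjusted p = 0.0932, with a range of 0.000217 to 0.0932 over the alternatives). The activity of TFEB is set mainly by where the protein is in the cell, which these data do not measure. Among the genes with a promoter window, TCACGTGA occurred in 5 of the 32 that fell and in 2 of the 16 that did not pass. GAGGAAGT occurred in 3 of the 32 and in 1 of the 16.

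**Figure D3:**
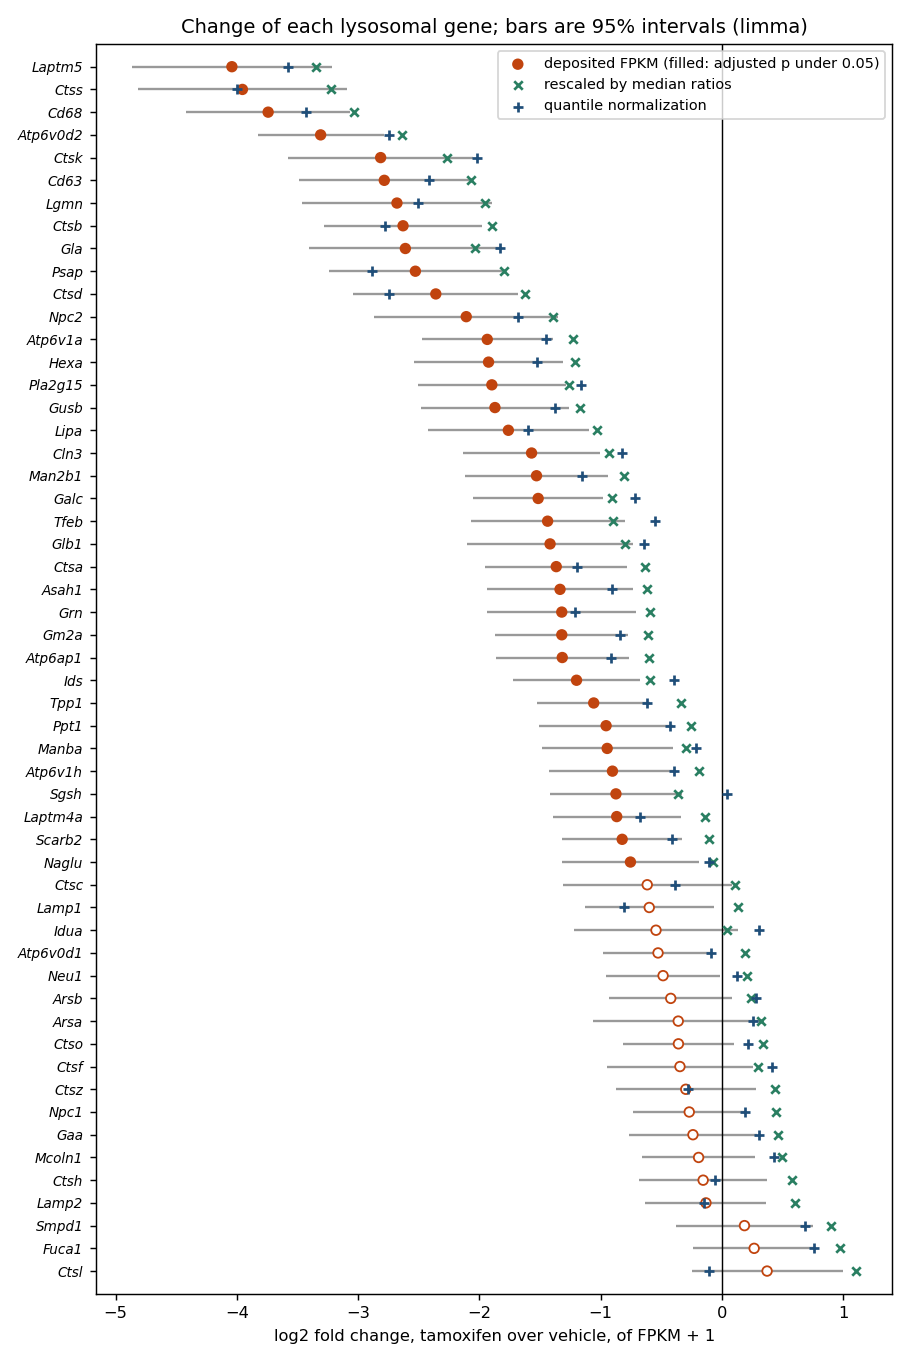
Log2 fold change of FPKM + 1, tamoxifen over vehicle, of the 54 lysosomal genes in order of size, with 95% intervals from limma as bars and filled circles for an adjusted p under 0.05. Crosses and plus signs give the value after median ratios and after quantile normalization. It runs from -4.04 for Laptm5 to 0.37 for Ctsl, and the crosses of 15 genes lie on the other side of 0.

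Known mainly from macrophages and osteoclasts are 5 of the 54 genes, a group set with earlier results known, so that its large changes were built into the choice. Cd68, Laptm5, Ctss, Ctsk and Atp6v0d2 all fell, by a median of 3.74, and their summed FPKM was 58.4 and 75.3 in tamoxifen, against 722 and 1451 in vehicle. The other 49 genes had a median log2 fold change of -0.96 on the deposited scale, where 31 fell (63.3%, beside 46.7% of all genes) and 0 rose. After median ratios 18 were lower (36.7%, beside 20.3% of all genes) and 3 higher (6.12%, beside 14.6%), with a median of -0.34. After quantile normalization 21 were lower (42.9%, beside 13.7%) and 1 higher (2.04%, beside 13.4%), with a median of -0.55. Macrophage markers were lower as well. All 16 Kupffer cell and macrophage markers fell, beside 46.7% of all genes, with a median log2 fold change of -3.02. Their summed FPKM was 155 and 263 in tamoxifen and 1687 and 3419 in vehicle. All 11 markers of monocytes and lipid-associated macrophages fell too, with sums of 88.5 and 139 FPKM in tamoxifen and 1066 and 2295 FPKM in vehicle. None of the markers of either list was at 0 in any library. In such bulk samples, fewer cells of a type and less RNA per cell cannot be told apart.

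Markers of other non-parenchymal cells fell as well. All 13 markers of liver sinusoidal endothelial cells and all 12 of stellate cells and fibroblasts were lower, beside 46.7% of all genes. Their median log2 fold changes were -1.86 and -3.21. Of 15 hepatocyte markers, 6 were higher and 0 were lower, with a median of 0.76. After median ratios 9 were higher (60.0%, beside 14.6% of all genes), with a median of 1.49. After quantile normalization 3 were higher (20.0%, beside 13.4% of all genes), with a median of 0.24 and 4 of the 15 below 0. With no filter 2 were higher (13.3%, beside 2.18% of all genes). Leaving out vehicle 1, vehicle 2, tamoxifen 1 or tamoxifen 2 gave hepatocyte medians of 0.91, 0.56, 0.89 and 0.61. The number of the 15 markers below 0 was then 0, 4, 3 and 1. How much of the change of each lysosomal gene came with these cell markers was not tested.

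Other lists of lysosomal genes are set beside the same background of 46.7% lower and 4.31% higher over all genes. Of 32 other hydrolases and cofactors tested, 20 fell (62.5%) and 0 rose, with a median log2 fold change of -1.02. After median ratios 9 were lower (28.1%, beside 20.3% of all genes) and 2 higher (6.25%, beside 14.6%), with a median of -0.32. After quantile normalization 12 were lower (37.5%, beside 13.7%) and 1 higher (3.13%, beside 13.4%), with a median of -0.41. Pld4 and Pld3, nucleases of the endolysosome, had the largest falls on the deposited scale. Pld4 had 2.51 and 3.20 FPKM in tamoxifen, against 16.2 and 38.3 FPKM in vehicle, and fell by 2.76 (adjusted p = 0.00159). Pld3 had 15.5 and 14.5 FPKM in tamoxifen and 74.8 and 119 FPKM in vehicle, and fell by 2.58 (adjusted p = 0.00071). Of 25 other membrane proteins and transporters, 17 fell (68.0%) and 0 rose, with a median of -0.89. Gpnmb, a membrane glycoprotein of lipid-laden macrophages, had 23.7 and 19.4 FPKM in tamoxifen, against 518 and 848 FPKM in vehicle, and fell by 4.88 (adjusted p = 0.000271). Slc11a1, the phagosomal metal transporter NRAMP1, had 1.66 and 3.15 FPKM in tamoxifen and 26.8 and 52.6 FPKM in vehicle, and fell by 3.54 (adjusted p = 0.000712). The groups of these 4 genes did not overlap.

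Of 16 genes that deliver enzymes to lysosomes, 13 fell (81.3%, beside 46.7% of all genes) and 0 rose, with a median of -1.09. The count rested on the scale. After median ratios 2 of the 16 were lower (12.5%, beside 20.3% of all genes) with a median of -0.44. After quantile normalization 6 were lower (37.5%, beside 13.7% of all genes) with a median of -0.27. Igf2r, the large mannose 6-phosphate receptor, had 4.39 and 4.44 FPKM in tamoxifen, against 16.7 and 15.3 FPKM in vehicle, and fell by 1.65 (adjusted p = 0.00126). Gnptab, of the enzyme that starts the mannose 6-phosphate tag, had 2.69 and 2.83 FPKM in tamoxifen and 7.74 and 12.4 FPKM in vehicle, and fell by 1.52 (adjusted p = 0.00373). Of 13 other pump subunits, 12 fell (92.3%) and 0 rose, with a median of -1.11. After median ratios 2 of the 13 were lower (15.4%, beside 20.3% of all genes) with a median of -0.39. After quantile normalization 6 were lower (46.2%, beside 13.7% of all genes) with a median of -0.69. Tcirg1, the a3 subunit best known from osteoclasts, had 10.3 and 12.4 FPKM in tamoxifen, against 48.6 and 91.6 FPKM in vehicle, and fell by 2.46 (adjusted p = 0.00125). Atp6v1b2, the widely used B subunit, had 15.2 and 16.8 FPKM in tamoxifen and 64.8 and 102 FPKM in vehicle, and fell by 2.28 (adjusted p = 0.000935). Over these 86 other genes of the lysosome, 62 were lower, and 0 were higher at an unadjusted p under 0.05. The median of the 86 was -1.19 without vehicle 1, -0.82 without vehicle 2, -1.03 without tamoxifen 1 and -0.89 without tamoxifen 2. For all genes these medians were -0.69, -0.52, -0.65 and -0.57. After median ratios 21 were lower (24.4%, near the 20.3% of all genes) and 5 higher, and the median of the 86 was -0.30 in place of -1.01. After quantile normalization 30 were lower (34.9%, beside 13.7% of all genes) and 5 higher, with a median of -0.34.

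Among 20 tested genes of the TFEB family and of mTORC1 at the lysosome, the kinase complex that holds TFEB in the cytosol, 12 fell (60.0%, beside 46.7% of all genes) and 0 rose, also at an unadjusted p under 0.05, with a median of -0.77. Tfec, a relative of TFEB found mainly in macrophages, had 0.62 and 1.44 FPKM in tamoxifen, against 6.63 and 13.3 FPKM in vehicle, and fell by 2.39 (adjusted p = 0.00208). Rragd, a Rag GTPase, had 0.21 and 0.26 FPKM in tamoxifen and 2.78 and 5.21 FPKM in vehicle, and fell by 1.97 (adjusted p = 0.0021). Both were low in tamoxifen, and the groups were apart. The median was -0.98 without vehicle 1, -0.67 without vehicle 2, -0.92 without tamoxifen 1 and -0.63 without tamoxifen 2. Both after median ratios and after quantile normalization 5 were lower (25.0%) and 1 was higher (5.0%), with medians of -0.078 and -0.19. Over all genes 20.3% were lower and 14.6% higher after median ratios, and 13.7% and 13.4% after quantile normalization.

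Autophagy delivers cytoplasm to the lysosome. Of 28 autophagy genes, 7 were lower (25.0%, beside 46.7% of all genes), 2 were higher (7.14%, beside 4.31%) and 19 did not pass, and their median log2 fold change was -0.36. Whether this list differed from the lysosomal genes or from all genes was not tested. Sqstm1, the autophagy receptor p62, had 133 and 108 FPKM in tamoxifen, against 315 and 404 FPKM in vehicle, and fell by 1.57 (adjusted p = 0.00229). Vps18, a tethering protein of late endosomes, had 2.08 and 1.92 FPKM in tamoxifen and 4.86 and 7.87 FPKM in vehicle, and fell by 1.27 (adjusted p = 0.00761). It missed the threshold after quantile normalization (adjusted p = 0.169) and without tamoxifen 2 (0.0533). Wipi1, which binds the lipid of the forming autophagosome, had 16.0 and 24.0 FPKM in tamoxifen, against 7.80 and 9.61 FPKM in vehicle. Both tamoxifen libraries were above both vehicle libraries, and Wipi1 rose by 1.09 (standard error 0.25, adjusted p = 0.0108). Atg14, a subunit of the lipid kinase complex of autophagy, had 7.34 and 10.1 FPKM in tamoxifen and 4.05 and 5.66 FPKM in vehicle, and rose by 0.73 (adjusted p = 0.0457). Wipi1 missed the threshold without vehicle 1 (adjusted p = 0.056) and without tamoxifen 2 (0.108). Atg14 missed it without any of the 4 libraries, with adjusted p values of 0.16 without vehicle 1, 0.0597 without vehicle 2, 0.0864 without tamoxifen 1 and 0.319 without tamoxifen 2. It also missed it with no filter (0.1) and at a mean of at least 5 FPKM (0.0544). Over all alternatives the adjusted p ranged over 0.000577 to 0.108 for Wipi1, 0.00776 to 0.319 for Atg14 and 0.000525 to 0.169 for Vps18. The median of the 28 was -0.38 without vehicle 1, -0.35 without vehicle 2, -0.30 without tamoxifen 1 and -0.40 without tamoxifen 2. For all genes these medians were -0.69, -0.52, -0.65 and -0.57. With no filter 3 were lower (10.7%, beside 27.4% of all genes) and 1 higher (3.57%, beside 2.18%). At a mean of at least 5 FPKM 6 were lower (22.2%, beside 42.2%) and 1 higher (3.70%, beside 5.55%). After median ratios 2 were lower (7.14%, beside 20.3% of all genes) and 8 higher (28.6%, beside 14.6%), with a median of 0.31. After quantile normalization 1 was lower (3.57%, beside 13.7%) and 3 were higher (10.7%, beside 13.4%), with a median of 0.23.

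**Figure D4:**
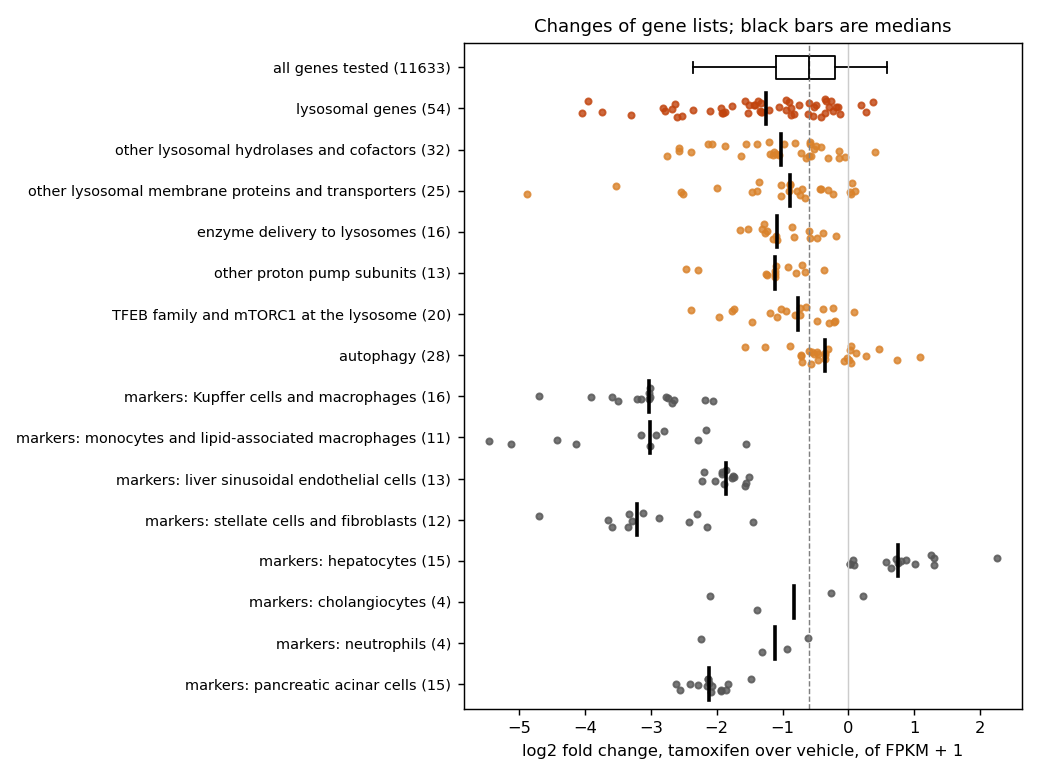
Log2 fold change of FPKM + 1, tamoxifen over vehicle, for the 54 lysosomal genes, 6 further lists of the lysosome and autophagy, and lists of cell markers with 4 or more genes tested. Each point is 1 gene, black bars are medians, and the box gives the quartiles of all 11633 genes with whiskers at the 5th and 95th percentiles. The median lies at -1.26 for the lysosomal genes, -0.36 for autophagy, -3.02 for Kupffer cells and macrophages and 0.76 for hepatocytes, beside a dashed line at -0.60 for all genes.

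Some of these transcripts overlap other genes, and the library kit named in the labels does not mark strand, so shared reads cannot be told apart. Exons of Ctsb share 774 bases with Fdft1, which lies opposite and had 74.4 and 81.0 FPKM in tamoxifen, against 31.7 and 24.1 FPKM in vehicle, the reverse of Ctsb. Exons of Ctsa share 495 bases with Pltp, which had 5.94 and 8.62 FPKM in tamoxifen and 44.4 and 85.0 FPKM in vehicle. Those of Cln3 share 442 bases with Apobr, at 0.40 and 0.38 FPKM in tamoxifen and 4.17 and 8.25 FPKM in vehicle. Those of Ppt1 share 129 bases with Cap1, at 19.7 and 19.3 FPKM in tamoxifen and 57.1 and 94.3 FPKM in vehicle. Ctsd shares 808 bases with Gm49369 on the same strand, and that gene had 0.78 and 1.40 FPKM in tamoxifen and 3.57 and 6.57 FPKM in vehicle. Exons of Npc1 share 511 bases with Rmc1, at 3.78 and 3.01 FPKM in tamoxifen and 7.84 and 10.6 FPKM in vehicle. Those of Idua share 141 bases with Slc26a1, which at 34.5 and 28.2 FPKM in tamoxifen and 51.5 and 31.7 FPKM in vehicle was more abundant than Idua itself. The values of these genes, and of the other members with shared exons, are uncertain to the extent of the shared bases.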

How the data were processed

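RNA of primary hepatocytes was sequenced in 2 tamoxifen and 2 vehicle libraries. The authors deposited FPKM values per gene, and the submitters' processing notes list HISAT2, Bowtie2, RSEM, fastp 0.18.0 and StringTie 1.3.1 without their order. The genome build and annotation behind the FPKM values were not given in the sources used here. Values were analysed as log2(FPKM + 1) in limma 3.58.1 (lmFit and eBayes with trend, R 4.3.3) without covariates, with Benjamini-Hochberg adjustment over the 11633 genes that reached 1 FPKM in 2 or more libraries. A fold change on this scale understates the change of low genes. Every fold change is tamoxifen over vehicle. The limma test was run on data simulated on the log2 scale. That simulation did not exercise the pseudocount of 1 or the filter. Alternatives were a pseudocount of 0.1, no filter, a mean of at least 5 FPKM, median ratios, quantile normalization, scaling without the top 100 genes, each library left out and the replicate number as a block. No counts were given, so the depth is an estimate from the spacing of low values (GENCODE M21, GRCm38) and carries no counting interval.

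The members, lists and tests were chosen with earlier results of these data known. Lists were written from general knowledge. In each role group the rule gave full values for the 2 most abundant genes, the 2 largest called changes and those whose call changed with scaling at a mean of at least 5 FPKM, and in other lists for the 2 largest called changes and any called higher; values of further genes were added for completeness after they were seen. The plots were made in matplotlib 3.10.9 (Python 3.11.15).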

Additional observations from a re-analysis of the deposited data

How the results depend on the processing

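Scaling moved the values most. After median ratios 23 of the 54 lysosomal genes were lower and 3 higher, with a median log2 fold change of -0.59, and of all genes 2362 were lower and 1700 higher. After quantile normalization 1 was higher, the median was -0.66, and 1595 of all genes were lower and 1563 higher. Scaling without the top 100 genes gave 1 higher, a median of -0.93, and 3538 lower and 794 higher of all genes. Under the stricter filter, a mean FPKM of 5 or more, 3182 of the 7536 genes then tested were lower (42.2%, beside 46.7%). Over the libraries left out in turn, the lysosomal genes had 29 to 38 lower, 0 higher and a median of -1.45 to -1.004, and all genes had 2555 to 5531 lower and 263 to 500 higher.

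Some directions turned. After median ratios the median of all genes was 0.013 and that of autophagy genes 0.31, and the log2 fold change was 0.11 for Ctsc, 0.30 for Ctsf, 0.58 for Ctsh, 0.34 for Ctso, 0.43 for Ctsz, 0.46 for Gaa, 0.32 for Arsa, 0.24 for Arsb, 0.20 for Neu1, 0.043 for Idua, 0.45 for Npc1, 0.13 for Lamp1, 0.60 for Lamp2, 0.49 for Mcoln1 and 0.19 for Atp6v0d1. After quantile normalization both medians were 0.094 and 0.23, and it was 0.41 for Ctsf, -0.11 for Ctsl, 0.22 for Ctso, 0.31 for Gaa, 0.26 for Arsa, 0.28 for Arsb, 0.13 for Neu1, 0.31 for Idua, 0.042 for Sgsh, 0.19 for Npc1 and 0.43 for Mcoln1. Without the top 100 genes in the scaling it was 0.20 for Ctsh, 0.060 for Ctsz, 0.11 for Gaa, 0.081 for Npc1, 0.23 for Lamp2 and 0.14 for Mcoln1. Over the libraries left out in turn it ran over -0.33 to 0.016 for Ctsh (highest without vehicle 2), -0.078 to 0.45 for Smpd1 (lowest without vehicle 2) and -0.81 to 0.086 for Arsa (highest without tamoxifen 2). None of these passed the test in the fit that turned it, and only Sgsh had passed before. The cause was not tested.

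The replicate number as a block left 36 lysosomal genes lower and 0 higher, changed no call among them, and gave 5863 lower and 573 higher of all genes. The deviations of same-numbered libraries from their group means had a correlation of 0.283 over 11633 genes. In a group of 2 these deviations mirror each other, so both numbers give the same single value. With 2 pairs and no label for a shared mouse or day, the numbers are not shown to pair the libraries. For each lysosomal gene that fell on the deposited scale, the lowest adjusted p of its range came from this block fit. Those low ends therefore rest on a pairing that is not shown. Depth, known only as an estimate, limits the lowest genes, such as Ctsk, Gla, Sgsh and Tfeb.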
